A study of Mus musculus with 4 samples.

Results

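The myostatin and activin pathway was examined through 10 genes, *Mstn*, *Gdf11*, *Fst*, *Fstl1*, *Fstl3*, *Acvr2a*, *Acvr2b*, *Acvr1b*, *Smad2* and *Smad3*, in RNA-seq of gastrocnemius muscle, the large fast-twitch calf muscle. The members were chosen by gene name from a table of 22252 names, and all 10 were present. The mice were 7-week-old males of the C57BL/6J strain, and all carried a floxed gene for the glucocorticoid receptor (GR Flox+/+). The 4 groups were lean GRf/f (Cre-/-, Lep+/+), lean GRmKO (Cre+/-, Lep+/+), ob/ob GRf/f (Cre-/-, Lepob/ob) and ob/ob GRmKO (Cre+/-, Lepob/ob). In GRmKO mice, Cre is driven by *Acta1*, the gene for skeletal muscle actin, so that only muscle fibers are expected to lose the receptor. Other cells of the muscle keep it. The ob/ob mice lack functional leptin and become obese. RNA of 3 mice per group was pooled into 1 library, so the spread between mice is unknown and no difference could be tested against it.

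Myostatin, encoded by *Mstn*, is a secreted factor of the TGF-β family that is made by muscle fibers and restrains muscle mass. Its close relative GDF11 and the activins share its receptors. The ligand binds a type II receptor, ACVR2A or ACVR2B, which recruits a type I receptor such as ACVR1B (ALK4), and the type I receptor phosphorylates SMAD2 and SMAD3. These then enter the nucleus with SMAD4 and regulate transcription. Follistatin (*Fst*) and FSTL3 bind the ligands and keep them from the receptors. FSTL1 shares a follistatin-like domain with them, but it is better known as a secreted glycoprotein of stromal cells. Glucocorticoids are known to raise myostatin in muscle under many conditions, and how the members differed with the receptor deletion and with obesity was therefore compared.

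Each library held 19897754 to 20959781 expected counts, and expression is given in CPM, which scales each library to the same total. Intervals are exact 95% intervals that cover counting error only. *Nr3c1*, which encodes the receptor, was at 125 CPM in lean GRf/f and 102 CPM in ob/ob GRf/f mice, against 67.0 CPM in lean GRmKO and 39.1 CPM in ob/ob GRmKO mice. *Fkbp5*, a well-known target of the receptor, was at 88.8 and 106 CPM in the GRf/f libraries and at 22.8 and 26.1 CPM in the GRmKO libraries. Both genes were lower in both GRmKO libraries, as the labels imply. The summed markers of muscle fibers were between 131339 and 157229 CPM, far above those of any other cell type listed, and no marker of any type was at 0.

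A gene was called changed where its CPM differed at least 1.5-fold between 2 libraries. Calls were made among the 11141 genes that had a count above 0 in each library and a mean of at least 50 expected counts. All 10 members passed this filter. It counts all 4 libraries alike, and the member nearest to it, *Acvr2b*, had between 56.4 and 89.7 counts per library.

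The 250 bases before the transcription start of 3 members are shown, since the deleted receptor acts by binding DNA. *Mstn* and *Gdf11* are shown because they are close relatives that differed in response. *Fstl3* is shown because it is the member with a match to 1 arm of the receptor's palindromic site, a choice made after its values were seen. The sequences are from RefSeq on GRCm38.p6 and are written from 5′ to 3′ on the strand of the gene. They lie at chr1:53061390-53061639 on the plus strand (*Mstn*), chr10:128891719-128891968 on the minus strand (*Gdf11*) and chr10:79777024-79777273 on the plus strand (*Fstl3*). Capitals mark the E-box CANNTG, the TATA box TATAAA and AGAACA, 1 arm of the receptor's palindromic site, each searched on both strands.
Mstn: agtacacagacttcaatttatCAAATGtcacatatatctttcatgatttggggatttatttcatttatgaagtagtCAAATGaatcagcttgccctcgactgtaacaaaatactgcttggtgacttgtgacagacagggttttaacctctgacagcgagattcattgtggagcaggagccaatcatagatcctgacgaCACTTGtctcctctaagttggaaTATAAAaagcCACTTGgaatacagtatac
Gdf11: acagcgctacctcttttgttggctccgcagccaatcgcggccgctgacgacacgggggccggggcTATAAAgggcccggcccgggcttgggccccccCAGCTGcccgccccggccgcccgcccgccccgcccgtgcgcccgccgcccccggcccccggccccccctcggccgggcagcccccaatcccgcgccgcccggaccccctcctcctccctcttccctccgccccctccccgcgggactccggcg
Fstl3: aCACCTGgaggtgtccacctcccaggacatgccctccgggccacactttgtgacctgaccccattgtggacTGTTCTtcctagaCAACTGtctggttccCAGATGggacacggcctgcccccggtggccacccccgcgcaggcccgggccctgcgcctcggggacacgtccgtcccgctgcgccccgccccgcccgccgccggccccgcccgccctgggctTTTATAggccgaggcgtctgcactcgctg
The *Mstn* promoter had a GC content of 38.4%, a TATA box from position -29 to -24 relative to the start, and 4 E-boxes, at -229, -174, -52 and -19. The E-box is the core motif of the myogenic factors of the MyoD family. The *Gdf11* promoter had a GC content of 81.2%, 1 E-box at -153, and a TATA box letter match only at -185, away from the usual place. The *Fstl3* promoter had a GC content of 71.2%, 3 E-boxes and a TATA box on the opposite strand (TTTATA) at -29. It also had AGAACA, 1 arm and not the full site of the receptor, on the opposite strand (TGTTCT) from -179 to -174. The motif AGAACA was present in 16.1%, an E-box in 66.2% and TATAAA, at any position, in 12.4% of 32851 promoters of the same length. The full palindrome, AGAACA and TGTTCT with 3 bases between them, was found in 0.00913% of promoters and in none of the 8 members with a promoter sequence (*Fst* and *Smad2* had none). The Smad palindrome GTCTAGAC, found in 0.167% of promoters, and the FoxO site GTAAACA, found in 3.17%, were absent from these 8 windows as well. Both palindromes are so rare that they were all but certain to be absent from 8 windows. The search covered exact letters in 250 bases only, so it does not show whether the receptor acts on these genes.

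*Mstn* (chr1:53061640-53068079, plus strand, 3 exons) was lower in the libraries of mice without muscle GR and close between lean and ob/ob mice. It was at 90.0 CPM in lean GRf/f (86.0–94.2), 52.7 CPM in lean GRmKO (49.5–56.0), 86.2 CPM in ob/ob GRf/f (82.3–90.3) and 55.1 CPM in ob/ob GRmKO mice (52.0–58.4). Both GRf/f libraries were thus above both GRmKO libraries, and their intervals did not overlap. The log2 change of GRmKO against GRf/f was -0.77 in lean mice (-0.88 to -0.66), or 1.71-fold lower, and 2.04% of the genes tested were lower by at least as much. In ob/ob mice, the log2 change was -0.65 (-0.75 to -0.54), or 1.56-fold lower, with 6.51% of genes at least as low. In bulk muscle, fewer cells of a type and less RNA per cell cannot be told apart. Between ob/ob and lean mice, the log2 change was -0.06 in GRf/f (-0.16 to 0.03) and 0.07 in GRmKO mice (-0.06 to 0.19). Both intervals include 0, and the sign in GRf/f turned under other scalings (0.04 with TMM factors).

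Markers of adipocytes and slow fibers differed between the same libraries as *Mstn*, and those of smooth muscle differed little. Adipocyte markers were lower in GRmKO than in GRf/f mice in 7 of 7 cases in both backgrounds, 6 and 5 of them at least 1.5-fold, and summed to 996 CPM in lean GRf/f, 644 CPM in lean GRmKO, 573 CPM in ob/ob GRf/f and 354 CPM in ob/ob GRmKO mice. Slow-fiber markers were higher in GRmKO mice in 9 of 9 cases in lean and 8 of 9 in ob/ob mice, 3 and 4 of them at least 1.5-fold. Smooth muscle markers were lower in 3 of 3 cases in both backgrounds, none by 1.5-fold, with sums of 302 against 320 CPM and 253 against 282 CPM. The sum of the myofiber markers, most of which are genes of fast fibers such as *Myh4*, was 136263 against 131339 CPM in lean GRf/f and GRmKO mice. In ob/ob mice it was 146780 against 157229 CPM, so that this sum differed far less than *Mstn* and in opposite directions in the lean and ob/ob backgrounds. The part of these cells and fibers in the values of *Mstn* was not tested.

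*Gdf11* (chr10:128882295-128891718, minus strand) did not share this pattern. It was at 11.5 CPM in lean GRf/f (10.1–13.0), 8.20 CPM in lean GRmKO (6.98–9.55), 14.4 CPM in ob/ob GRf/f (12.9–16.2) and 16.1 CPM in ob/ob GRmKO mice (14.5–17.9). The lean GRmKO library was the lowest and both ob/ob libraries were above the lean GRf/f one, although the intervals of lean GRf/f and ob/ob GRf/f overlapped narrowly. Between ob/ob and lean GRmKO mice, the log2 change was 0.98 (0.70 to 1.26), or 1.97-fold higher, and 1.62% of genes were higher by at least as much. In GRf/f mice, the same change was 0.33 (0.08 to 0.59). GRmKO against GRf/f gave -0.48 in lean (-0.78 to -0.19) and 0.16 in ob/ob mice (-0.07 to 0.39). None of these last 3 reached 1.5-fold.

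The counts of *Mstn* were 7.86 times those of *Gdf11* in lean GRf/f (6.86–9.03), 6.42 times in lean GRmKO (5.45–7.63), 5.97 times in ob/ob GRf/f (5.28–6.76) and 3.41 times in ob/ob GRmKO mice (3.02–3.87). A ratio within a library does not depend on the scaling between libraries. It was lowest in ob/ob GRmKO mice, whose interval lay apart from the other three. The coding sequences of both genes were identical at 65.4% of aligned bases, with no identical run longer than 12 bases, and they shared no 31-base stretch.

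**Figure D1:**
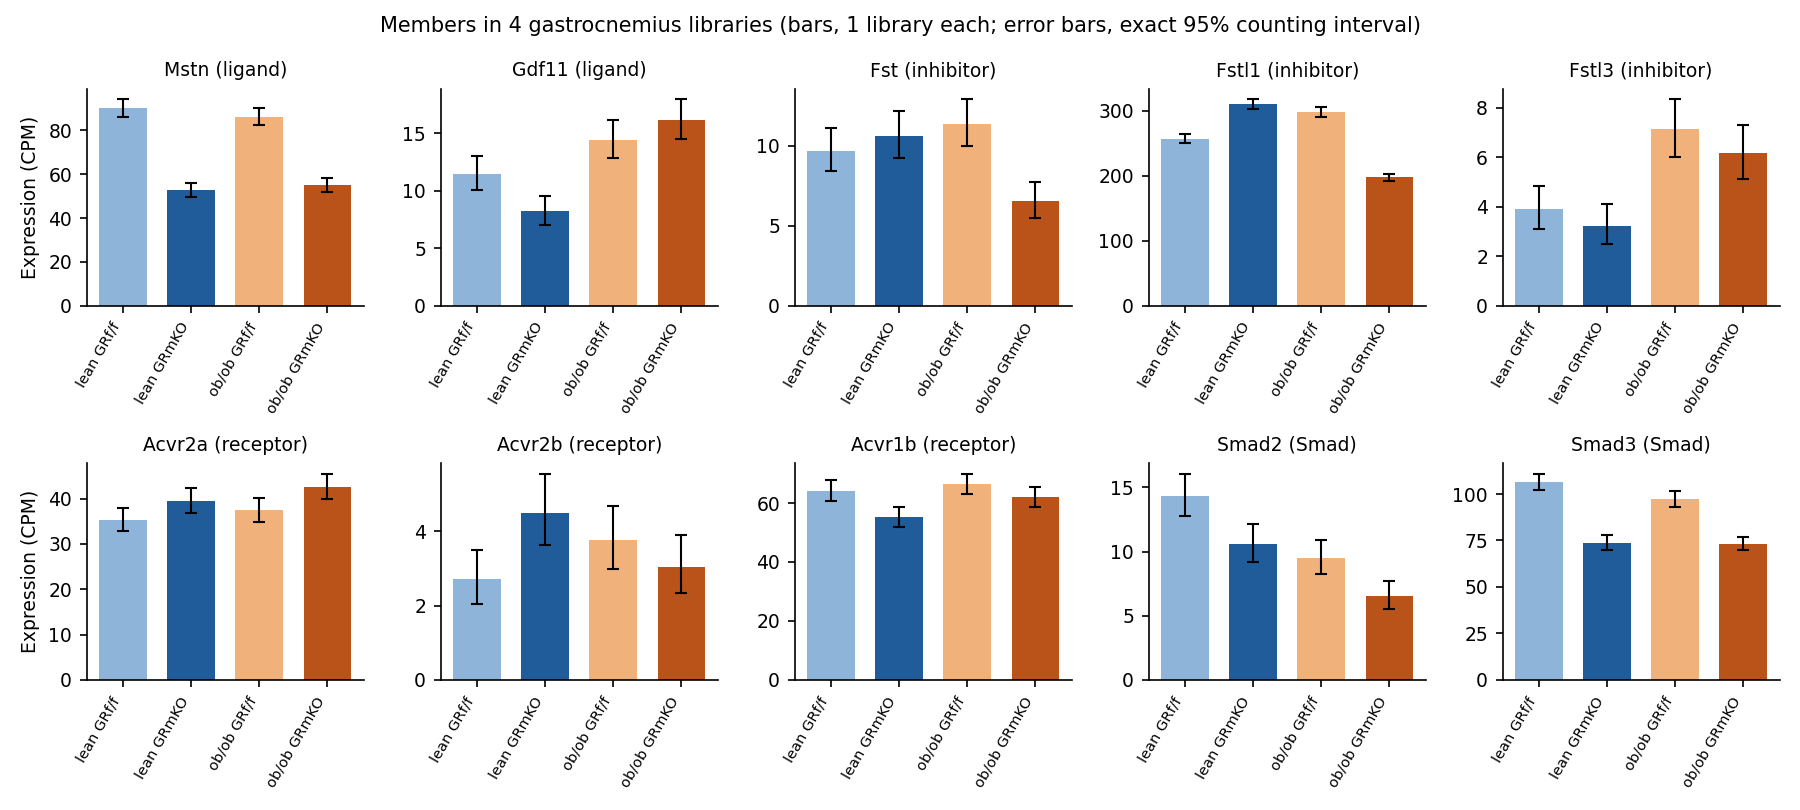
Expression of the 10 members in CPM (y axis, linear from 0) in the 4 libraries (x axis), 1 bar per library, with exact 95% counting intervals as error bars. *Mstn* and *Smad3* were lower in both GRmKO libraries, *Fstl3* was higher in both ob/ob libraries, and *Fst* and *Fstl1* were lowest in the ob/ob GRmKO library.

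Of the inhibitors, *Fst* (chr13:114452290-114458951, minus strand) was lower in the ob/ob GRmKO library than in the other three. It was at 9.67 CPM in lean GRf/f (8.39–11.1), 10.6 CPM in lean GRmKO (9.22–12.1), 11.3 CPM in ob/ob GRf/f (9.96–12.9) and 6.56 CPM in ob/ob GRmKO mice (5.49–7.73). The first 3 intervals overlapped one another, and the last was below them all. The log2 change of GRmKO against GRf/f in ob/ob mice was -0.79 (-1.11 to -0.49), or 1.73-fold lower, and 4.22% of genes were at least as low. That of ob/ob against lean GRmKO mice was -0.69 (-1.02 to -0.38), or 1.62-fold lower, but it was under 1.5-fold with TMM, DESeq2 or upper quartile scaling. The other 2 comparisons gave 0.23 (-0.05 to 0.51) and 0.13 (-0.15 to 0.42), and both intervals include 0.

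*Fstl1* (chr16:37776873-37836514, plus strand), with 4134 counts or more in every library, was also lowest in ob/ob GRmKO mice. It was at 257 CPM in lean GRf/f (250.2–264), 310.0 CPM in lean GRmKO (302–318), 298 CPM in ob/ob GRf/f (291–306) and 197 CPM in ob/ob GRmKO mice (191–203). No 2 of these intervals overlapped except those of lean GRmKO and ob/ob GRf/f mice. Between ob/ob and lean mice, *Fstl1* was higher in GRf/f (log2 change 0.22, 0.16 to 0.27) and lower in GRmKO mice (-0.65, -0.71 to -0.59, or 1.57-fold). Between GRmKO and GRf/f, it was higher in lean (0.27, 0.22 to 0.32) and lower in ob/ob mice (-0.60, -0.65 to -0.54, or 1.51-fold). Both 1.5-fold calls lie close to the threshold and were lost under all 4 other scalings, where the direction stayed the same.

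Markers of other cells differed between the same libraries. In the ob/ob GRmKO library, 9 of 9 markers of fibroblasts and fibro-adipogenic progenitors were lower than in the ob/ob GRf/f library. Their median log2 change was -0.58. The 4 that were at least 1.5-fold lower were *Pdgfra* and the collagen genes *Col1a1*, *Col1a2* and *Col3a1*. The summed level was 5805 against 10653 CPM, most of it from these collagen genes (2277 against 4108, 1565 against 3411 and 1029 against 1853 CPM). Against lean GRmKO mice, 7 of 9 were at least 1.5-fold lower, but the collagen genes *Col1a1* (2277 against 1264 CPM) and *Col1a2* (1565 against 1251 CPM) were higher. Between ob/ob and lean GRf/f mice, where *Fstl1* was higher, 4 of the 9 markers were higher and 5 lower. *Pdgfra*, which defines these progenitors, was at 46.7 CPM in ob/ob GRmKO and 72.3 CPM in ob/ob GRf/f mice. In the lean libraries the sums were 6110 CPM in GRmKO and 5644 CPM in GRf/f mice, and *Pdgfra* was at 84.7 and 68.3 CPM. Macrophage markers summed to 90.8 CPM in ob/ob GRmKO mice and to between 145 and 235 CPM in the other libraries. The part of these cells in the values of *Fst* and *Fstl1* was not tested.

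*Fstl3* (chr10:79777272-79782630, plus strand) was higher in both ob/ob libraries than in both lean ones. It was at 3.89 CPM in lean GRf/f (3.10–4.85), 3.23 CPM in lean GRmKO (2.48–4.11), 7.13 CPM in ob/ob GRf/f (6.01–8.35) and 6.17 CPM in ob/ob GRmKO mice (5.14–7.32). The ob/ob libraries were above the lean ones and their intervals did not overlap, while within each background the GRf/f and GRmKO intervals did. The log2 change of ob/ob against lean was 0.87 in GRf/f (0.47 to 1.27), or 1.83-fold higher, and 0.94 in GRmKO mice (0.49 to 1.39), or 1.91-fold higher. Among all genes tested, 2.32% and 1.85% were higher by at least as much. GRmKO against GRf/f gave -0.27 in lean (-0.77 to 0.21) and -0.21 in ob/ob mice (-0.56 to 0.14).

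The depth behind *Fstl3* was low, from 64.2 to 149 counts per library. The gene overlaps *Prss57* on the opposite strand, and 58.5% of its 31-base stretches occur there in reverse complement. Whether the library preparation kept strand is not given in the sources used here, so reads of the overlap may have gone to either gene. *Prss57* was at 11.4, 6.83, 1.49 and 1.58 counts in lean GRf/f, lean GRmKO, ob/ob GRf/f and ob/ob GRmKO mice. With the counts of both genes added, an alternative chosen after the data had been seen, the log2 change of ob/ob against lean was 0.70 in GRf/f and 0.81 in GRmKO mice.

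Slow-fiber markers also differed with obesity. Of 9 such markers, 9 were at least 1.5-fold higher in ob/ob than in lean mice in both genotypes, and their summed level was 519 CPM in lean GRf/f, 692 CPM in lean GRmKO, 1152 CPM in ob/ob GRf/f and 1646 CPM in ob/ob GRmKO mice. Their part in the values of *Fstl3* and *Gdf11*, which were higher in the same libraries, was not tested.

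**Figure D2:**
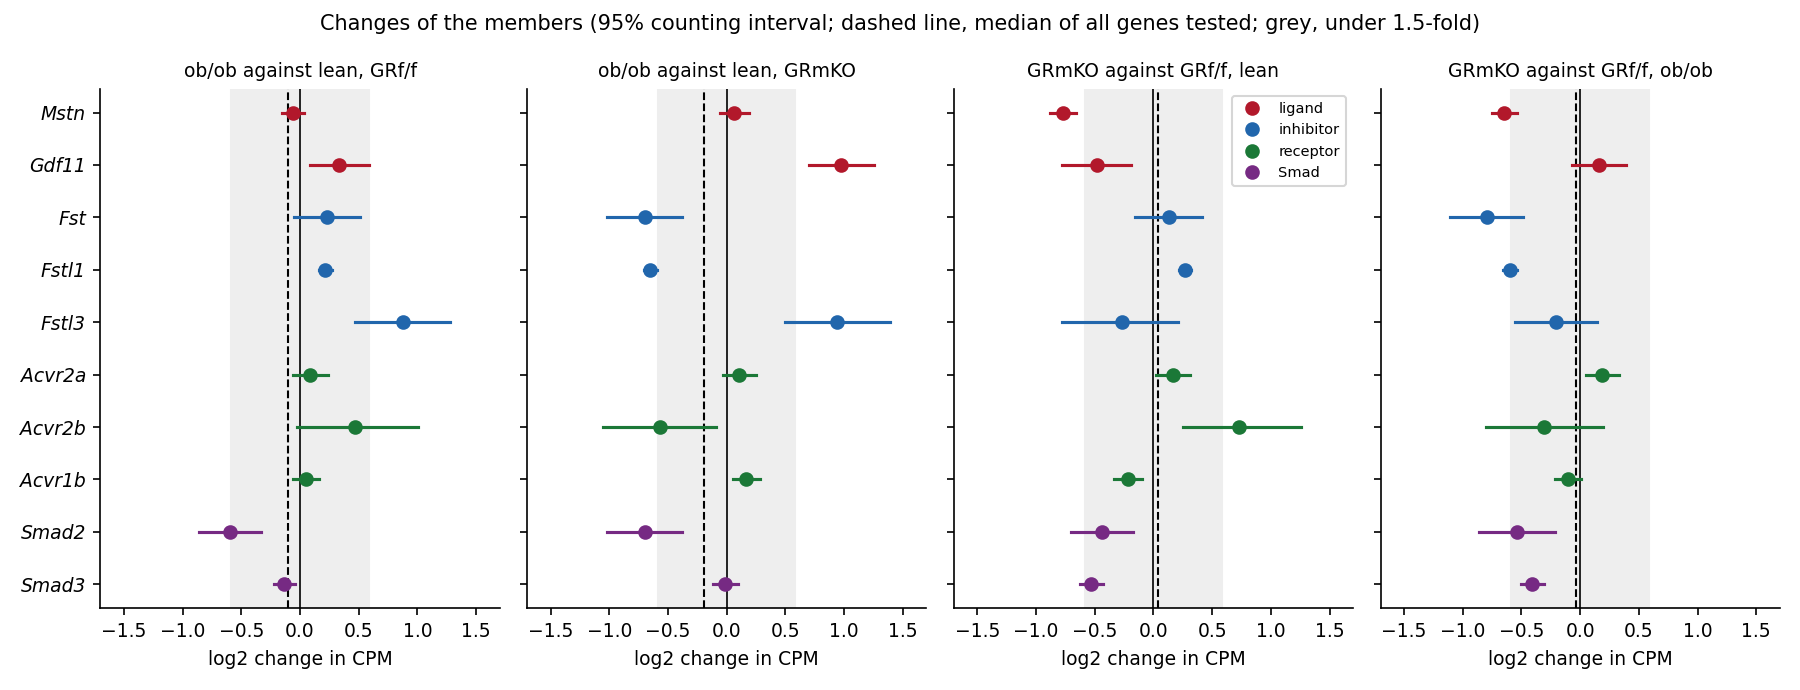
Log2 change in CPM (x axis) of each member (y axis) in the 4 comparisons, colored by role, with 95% counting intervals as lines, the median of all genes tested as a dashed line and changes under 1.5-fold shaded in grey. *Mstn* lies left of the shaded band in both comparisons of genotype, and *Fstl3* right of it in both comparisons of obesity.

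The receptors varied less. *Acvr1b* (chr15:101174067-101213684, plus strand), the type I receptor, was between 55.2 CPM in lean GRmKO (52.0–58.5) and 66.4 CPM in ob/ob GRf/f mice (63.0–70.0), with 64.2 CPM in lean GRf/f and 62.0 CPM in ob/ob GRmKO mice. *Acvr2a* (chr2:48814109-48903269, plus strand), a type II receptor, was between 35.3 CPM in lean GRf/f (32.8–37.9) and 42.6 CPM in ob/ob GRmKO mice (39.9–45.5), with 39.5 CPM in lean GRmKO and 37.5 CPM in ob/ob GRf/f mice. The highest library was thus at most 1.21 times the lowest for either gene, and neither was called in any comparison. Of the 31-base stretches of *Acvr2a*, 7.36% lie in *Orc4*, which overlaps it on the opposite strand and had 406 to 522 counts.

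*Acvr2b* (chr9:119402118-119434995, plus strand), the other type II receptor, was the member with the lowest depth. It was at 2.72 CPM in lean GRf/f (2.04–3.5), 4.51 CPM in lean GRmKO (3.64–5.56), 3.76 CPM in ob/ob GRf/f (2.98–4.70) and 3.03 CPM in ob/ob GRmKO mice (2.35–3.90). Only the intervals of lean GRf/f and lean GRmKO mice were apart. The log2 change between these was 0.73 (0.25 to 1.3), or 1.66-fold higher in GRmKO, and in ob/ob mice it was -0.31 (-0.80 to 0.19). Between ob/ob and lean mice, it was 0.47 in GRf/f (-0.03 to 1.0) and -0.57 in GRmKO (-1.05 to -0.09). The counts of *Acvr2a* were 13.0 times those of *Acvr2b* in lean GRf/f (9.95–17.5), 8.77 times in lean GRmKO (7.02–11), 9.96 times in ob/ob GRf/f (7.88–12.7) and 14.1 times in ob/ob GRmKO mice (10.8–18.3). These intervals overlapped in all pairs of libraries.

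*Smad3* (chr9:63646767-63757994, minus strand) was, like *Mstn*, lower without muscle GR, to a smaller extent. It was at 106 CPM in lean GRf/f (102–111), 73.8 CPM in lean GRmKO (70.1–77.7), 97.1 CPM in ob/ob GRf/f (92.9–101) and 73.2 CPM in ob/ob GRmKO mice (69.6–77.0). Both GRf/f libraries were above both GRmKO libraries. GRmKO against GRf/f gave -0.53 in lean (-0.62 to -0.43), or 1.44-fold lower, and -0.41 in ob/ob mice (-0.50 to -0.31), or 1.33-fold lower, both under the 1.5-fold threshold. Between ob/ob and lean mice, the change was -0.13 in GRf/f (-0.22 to -0.05) and -0.01 in GRmKO mice (-0.12 to 0.09), and the second turned positive under all 4 other scalings (0.07 to 0.20).

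*Smad2* (chr18:76241580-76310963, plus strand) differed in every comparison in the same way. It was at 14.4 CPM in lean GRf/f (12.8–16.1), 10.6 CPM in lean GRmKO (9.22–12.1), 9.49 CPM in ob/ob GRf/f (8.22–10.9) and 6.53 CPM in ob/ob GRmKO mice (5.49–7.73). The lean GRf/f library was the highest and the ob/ob GRmKO library the lowest, and neither interval overlapped that of another library. Between ob/ob and lean mice, *Smad2* was 1.51-fold lower in GRf/f (log2 change -0.60, -0.86 to -0.33) and 1.62-fold lower in GRmKO mice (-0.70, -1.02 to -0.38). Between GRmKO and GRf/f, the log2 change was -0.44 in lean (-0.70 to -0.18) and -0.54 in ob/ob mice (-0.86 to -0.22). The call in GRf/f mice was lost under all 4 other scalings and that in GRmKO mice under 3 of them.

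The counts of *Smad3* were 7.41 times those of *Smad2* in lean GRf/f (6.57–8.40), 6.97 times in lean GRmKO (6.02–8.08), 10.2 times in ob/ob GRf/f (8.83–11.9) and 11.2 times in ob/ob GRmKO mice (9.40–13.4). Both ob/ob ratios were above both lean ratios, with no overlap of the intervals. Their coding sequences were identical at 77.1% of aligned bases, with a longest identical run of 23 bases, and they shared no 31-base stretch.

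Count ratios between members serve to compare libraries and are not corrected for length, so the order of the members' levels was taken per transcript length. On this scale (counts divided by transcript length and scaled to the same sum in every library, as in TPM), *Fstl1* was the most abundant, at 84.7 to 128 over the 4 libraries. *Mstn* followed at 29.3 to 51.9, then *Smad3* at 21.8 to 31.7, *Acvr1b* at 18.8 to 24.5 and *Acvr2a* at 9.40 to 12.2. The ranges of *Fst* (3.76 to 6.52), *Gdf11* (3.04 to 6.46) and *Fstl3* (2.48 to 5.94) overlapped, as did those of *Smad2* (1.31 to 2.69) and *Acvr2b* (1.30 to 2.14), so the order within these sets differed between libraries. The ranges of *Mstn* and *Smad3*, and of *Smad3* and *Acvr1b*, overlapped in part.

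**Figure D3:**
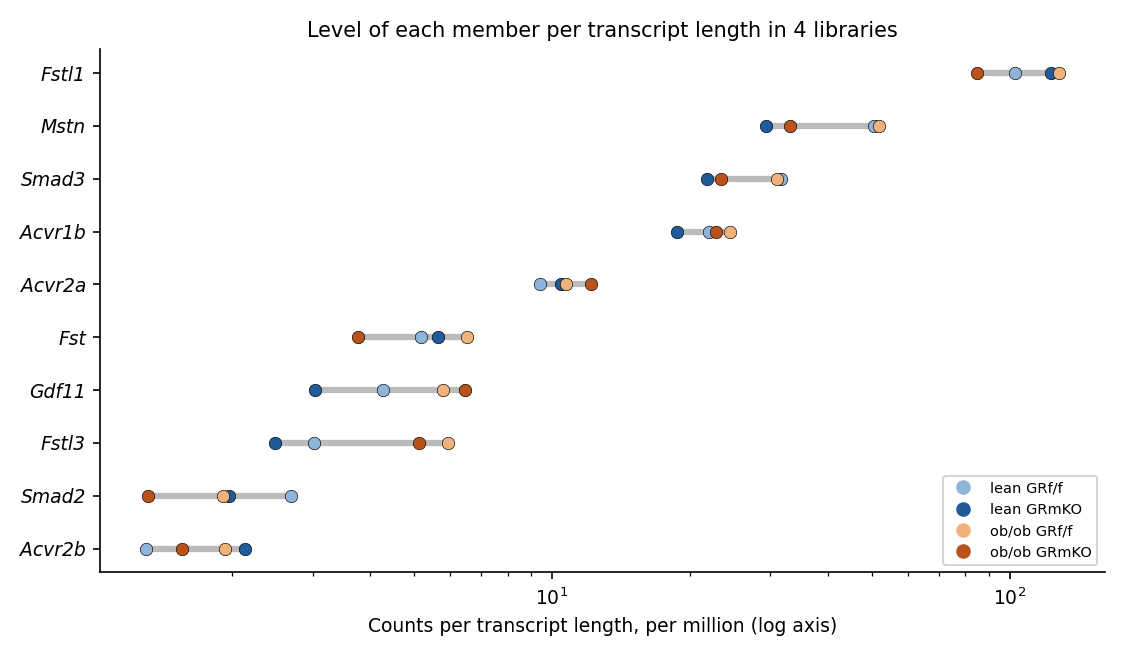
Level of each member (y axis, ordered by its mean) as counts per transcript length scaled as in TPM (x axis, log scale), with 1 point per library and a grey line from the lowest to the highest. *Fstl1* lies above *Mstn* in all 4 libraries, and *Acvr2b* and *Smad2* lie lowest.

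Against follistatin, the ratio of *Mstn* to *Fst* counts was 9.31 in lean GRf/f (8.04–10.8), 4.96 in lean GRmKO (4.28–5.79), 7.60 in ob/ob GRf/f (6.63–8.73) and 8.40 in ob/ob GRmKO mice (7.06–10.1). It was lowest in lean GRmKO mice, while the intervals of the ob/ob libraries overlapped. The ratio of *Mstn* to *Fstl1* showed the same order in lean mice, 0.350 in GRf/f and 0.170 in GRmKO, and in ob/ob mice it was 0.289 and 0.279 with overlapping intervals. The ratio of *Mstn* to *Fstl3* was 23.2, 16.3, 12.1 and 8.93 in lean GRf/f, lean GRmKO, ob/ob GRf/f and ob/ob GRmKO mice, and both ob/ob ratios were below both lean ratios, although the intervals of lean GRmKO (12.7–21.4) and ob/ob GRf/f mice (10.3–14.4) overlapped.

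The change with obesity was set side by side in both genotypes. The log2 change of ob/ob against lean was lower in GRmKO than in GRf/f mice by 1.04 for *Acvr2b* (a difference of -1.04, -1.72 to -0.36), by 0.92 for *Fst* (-0.92, -1.34 to -0.51) and by 0.87 for *Fstl1* (-0.87, -0.94 to -0.79), and it was higher by 0.64 for *Gdf11* (0.28 to 1.01). Of all genes tested, 5.04%, 6.73%, 7.93% and 15.6% differed by at least as much in either direction. For the other 6 members, the difference was between -0.10 and 0.13 and its counting interval included 0. These intervals are approximate and cover counting error only, and the spread between mice is unknown.

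Counted over the members, 2 of 10 changed between ob/ob and lean GRf/f mice (*Fstl3* higher, *Smad2* lower), against 16.5% of all genes tested. In GRmKO mice, 5 of 10 changed (*Gdf11* and *Fstl3* higher, *Fst*, *Fstl1* and *Smad2* lower), against 24.5% of all genes. Between GRmKO and GRf/f, 2 of 10 changed in lean mice (*Acvr2b* higher, *Mstn* lower), against 8.47%, and 3 of 10 in ob/ob mice (*Mstn*, *Fst* and *Fstl1* lower), against 12.5%. The median log2 change of the members was 0.15, 0.03, -0.24 and -0.36 in these 4 comparisons, beside -0.11, -0.20, 0.04 and -0.04 for all genes tested. Comparisons that share a library are not independent of each other. *Acvr2a*, *Acvr1b* and *Smad3* were called in none of them.

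The split of calls depended on the scaling between libraries. In CPM, 5.1% of genes were higher and 11.4% lower with obesity in GRf/f mice, and 4.79% and 19.7% in GRmKO mice. With TMM factors, which shift these log2 changes upward by 0.106 and 0.205, the shares were 7.54% and 7.95%, and 9.51% and 11.5%. The members called were then *Fstl3* in GRf/f and *Gdf11* and *Fstl3* in GRmKO mice, all higher. In the comparisons of genotype, where 4.88% and 4.41% of genes were higher and 3.59% and 8.11% lower in lean and ob/ob mice, the calls of *Mstn*, *Fst* and *Acvr2b* stood under all 4 other scalings.

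**Figure D4:**
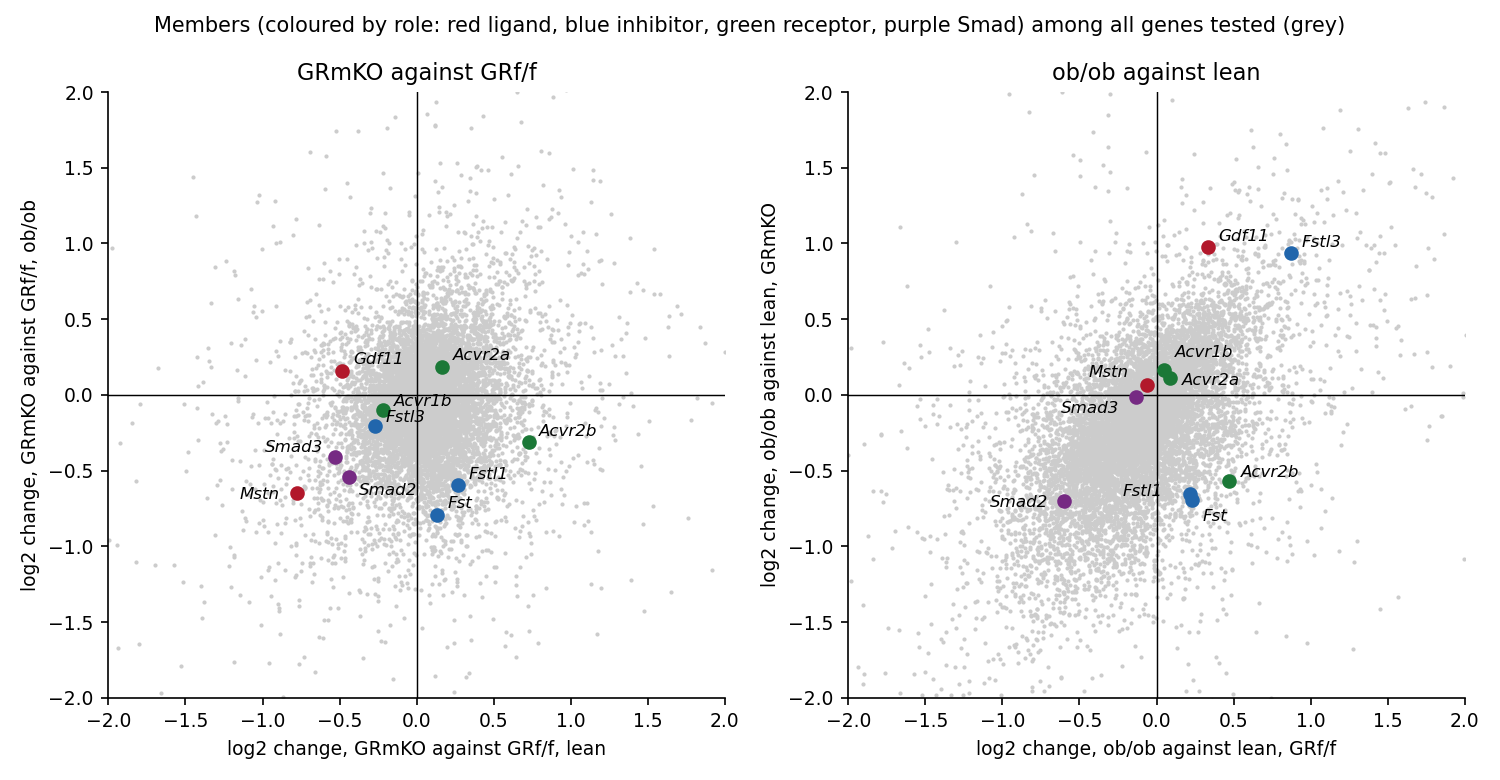
Log2 change in CPM of all genes tested (grey points) and the members (colored by role), with GRmKO against GRf/f in lean (x axis) and ob/ob mice (y axis) on the left, and ob/ob against lean in GRf/f (x axis) and GRmKO mice (y axis) on the right. Grey points beyond 2 on either axis are not drawn. *Mstn* lies to the lower left of the left panel and *Fstl3* to the upper right of the right panel. The 2 changes of each panel come from separate pairs of libraries, and each library is used once in either panel.

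The genes whose pattern was most like that of *Mstn* were searched among 10486 genes by the distance between centered log2 CPM values over the 4 libraries. They were *Med26* (distance 0.0532), a subunit of the Mediator complex, *Ppp1r14c* (0.113), an inhibitor of protein phosphatase 1, *Smyd2* (0.118), a lysine methyltransferase, *Tdrp* (0.125) and *Slc7a10* (0.129), an amino acid transporter. *Smyd2*, for example, was at 183 CPM in lean GRf/f, 116 CPM in lean GRmKO, 194 CPM in ob/ob GRf/f and 115 CPM in ob/ob GRmKO mice. For *Fst*, they were *Emb* (0.0528), *Sp3* (0.0588), *Slc30a7* (0.0595), *Arhgap26* (0.0627) and *Adamts2* (0.0700), of which *Adamts2*, a procollagen protease, was at 69.1, 78.3, 79.8 and 49.1 CPM in the same order. The likeness rests on 4 libraries and was not tested.

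Of 68 other genes of the TGF-β, activin and BMP pathways, 50 passed the filter. In the order ob/ob against lean in GRf/f, ob/ob against lean in GRmKO, GRmKO against GRf/f in lean, then ob/ob mice, 8, 18, 5 and 10 of these 50 changed. Of all genes tested, 16.5%, 24.5%, 8.47% and 12.5% changed in the same order. Among the 50, the direction of the changes was 5 higher and 3 lower, 5 higher and 13 lower, 4 higher and 1 lower, and 4 higher and 6 lower. With TMM factors, the first pair became 10 higher and 2 lower and the second 8 higher and 7 lower. The median log2 change was 0.01, -0.19, 0.06 and -0.15, beside -0.11, -0.20, 0.04 and -0.04 for all genes tested.

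Among the other ligands, the 3 most abundant were *Tgfb3*, *Tgfb2* and *Tgfb1*, and none of them was called in CPM. *Tgfb2* was at 28.5 CPM in lean GRf/f and between 40.1 and 45.4 CPM in the other libraries. The activin genes were expressed at low levels. *Inhba*, the subunit of activin A, was at 2.51 CPM in lean GRf/f, 4.02 CPM in lean GRmKO, 3.80 CPM in ob/ob GRf/f and 3.34 CPM in ob/ob GRmKO mice, with the lean GRf/f library lowest, and *Inhbb*, the subunit of activin B, was between 4.83 and 5.58 CPM. *Inha*, the α subunit that turns activins into inhibins, was at 2.75, 3.07, 4.10 and 6.30 CPM in the same order, highest in the ob/ob GRmKO library. *Gdf1* was between 2.94 and 5.82 CPM and changed with obesity in GRmKO and with genotype in lean mice. It shares a transcript with *Cers1*, so reads of the pair may not be told apart, which was not examined.

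Of the proteases that mature these ligands, *Bmp1* and *Pcsk6* were lowest in ob/ob GRmKO mice. *Furin*, which cleaves the myostatin precursor, was between 54.4 and 71.7 CPM and was not called. *Bmp1*, of the family that frees myostatin from its propeptide, was at 46.3 CPM in lean GRf/f, 48.0 CPM in lean GRmKO, 39.5 CPM in ob/ob GRf/f and 29.4 CPM in ob/ob GRmKO mice. *Pcsk6*, a furin-like convertase, was at 67.8, 72.3, 56.6 and 37.9 CPM in the same order, and both were at least 1.5-fold lower in ob/ob than in lean GRmKO mice in CPM. *Pcsk5* was lower in ob/ob GRmKO (7.99 CPM) than in ob/ob GRf/f mice (13.3 CPM).

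Among other inhibitors and ligand-binding proteins, *Tcap*, a sarcomere protein that binds myostatin inside the fiber, was the most abundant, from 1389 to 1830 CPM, and was not called. Decorin (*Dcn*), a matrix proteoglycan that binds myostatin and is also among the fibroblast markers, was at 1247 CPM in lean GRf/f, 1343 CPM in lean GRmKO, 882 CPM in ob/ob GRf/f and 634 CPM in ob/ob GRmKO mice. *Chrd* was at 3.61 CPM in ob/ob GRmKO mice and between 7.23 and 7.87 CPM in the others. *Ltbp4*, a latent TGF-β binding protein, was at 261 CPM in ob/ob GRmKO and 406 CPM in lean GRmKO mice, while *Ltbp3* and *Nog* were higher in ob/ob than in lean GRf/f mice, from 82.2 to 125 CPM and from 4.29 to 6.44 CPM.

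Of the other receptors, *Acvr1* (ALK2), a type I receptor for activins and BMPs, stood out with 10.3 CPM in lean GRf/f, 13.5 CPM in lean GRmKO, 6.93 CPM in ob/ob GRf/f and 17.5 CPM in ob/ob GRmKO mice. Its log2 change with genotype in ob/ob mice was 1.34. *Bmpr2* and *Bmpr1a*, the BMP receptors, were among the most abundant, at 85.6 to 123 CPM and 85.3 to 103 CPM, and were not called. *Tgfbr2*, *Tgfbr3*, *Bambi*, a decoy receptor, and *Eng*, a coreceptor of endothelial cells, were at least 1.5-fold lower in ob/ob than in lean GRmKO mice in CPM. *Eng*, for example, was at 77.3 against 134 CPM. With TMM factors, *Tgfbr2* and *Tgfbr3* were under 1.5-fold. The 6 endothelial markers were also lower in that comparison, 6 of 6 by at least 1.5-fold in CPM and 2 of 6 with TMM factors, and their part was not tested. *Bambi* was higher in lean GRmKO (6.14 CPM) than in lean GRf/f mice (3.62 CPM), and *Tgfbr3* was lower with genotype in ob/ob mice (39.4 against 61.5 CPM).

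Among Smad cofactors, *Ski* and *Skil*, which repress SMAD2 and SMAD3 in the nucleus, were lower in ob/ob GRmKO than in ob/ob GRf/f mice. *Ski* was at 65.2 CPM in lean GRf/f, 67.7 CPM in lean GRmKO, 100.5 CPM in ob/ob GRf/f and 58.7 CPM in ob/ob GRmKO mice, and *Skil* at 12.7, 10.5, 15.6 and 7.93 CPM in the same order. The ob/ob GRf/f library was the highest for both. *Zfyve9* (SARA), which presents SMAD2 and SMAD3 to the receptor, was between 54.4 and 62.5 CPM, *Smad4* between 43.9 and 48.8 CPM, and neither was called. *Tgif1*, another repressor, was at 3.24, 4.54, 2.06 and 3.11 CPM, lowest in ob/ob GRf/f mice. *Smad7*, the inhibitory Smad that the pathway itself induces, was between 7.40 and 10.6 CPM and was not called.

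Targets of the pathway did not move in 1 direction. *Ccn2* was at 109 CPM in lean GRf/f, 71.7 CPM in lean GRmKO, 114 CPM in ob/ob GRf/f and 136 CPM in ob/ob GRmKO mice. *Cdkn1a*, a cell cycle inhibitor, was at 38.4, 28.4, 44.0 and 60.7 CPM, and *Pmepa1*, a feedback inhibitor, at 55.2, 46.2, 80.8 and 72.7 CPM in the same order. All 3 were lowest in lean GRmKO mice, and all 3 were at least 1.5-fold higher in ob/ob than in lean GRmKO mice. *Id1* and *Id3*, targets of BMP signaling, were lower in both ob/ob libraries, *Id1* at 15.0 and 19.4 CPM against 36.8 and 29.7 CPM in lean mice and *Id3* at 20.9 and 23.0 CPM against 38.3 and 37.1 CPM. *Id2* was lowest in ob/ob GRmKO mice, at 4.54 CPM, and between 7.04 and 10.6 CPM in the others.

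**Figure D5:**
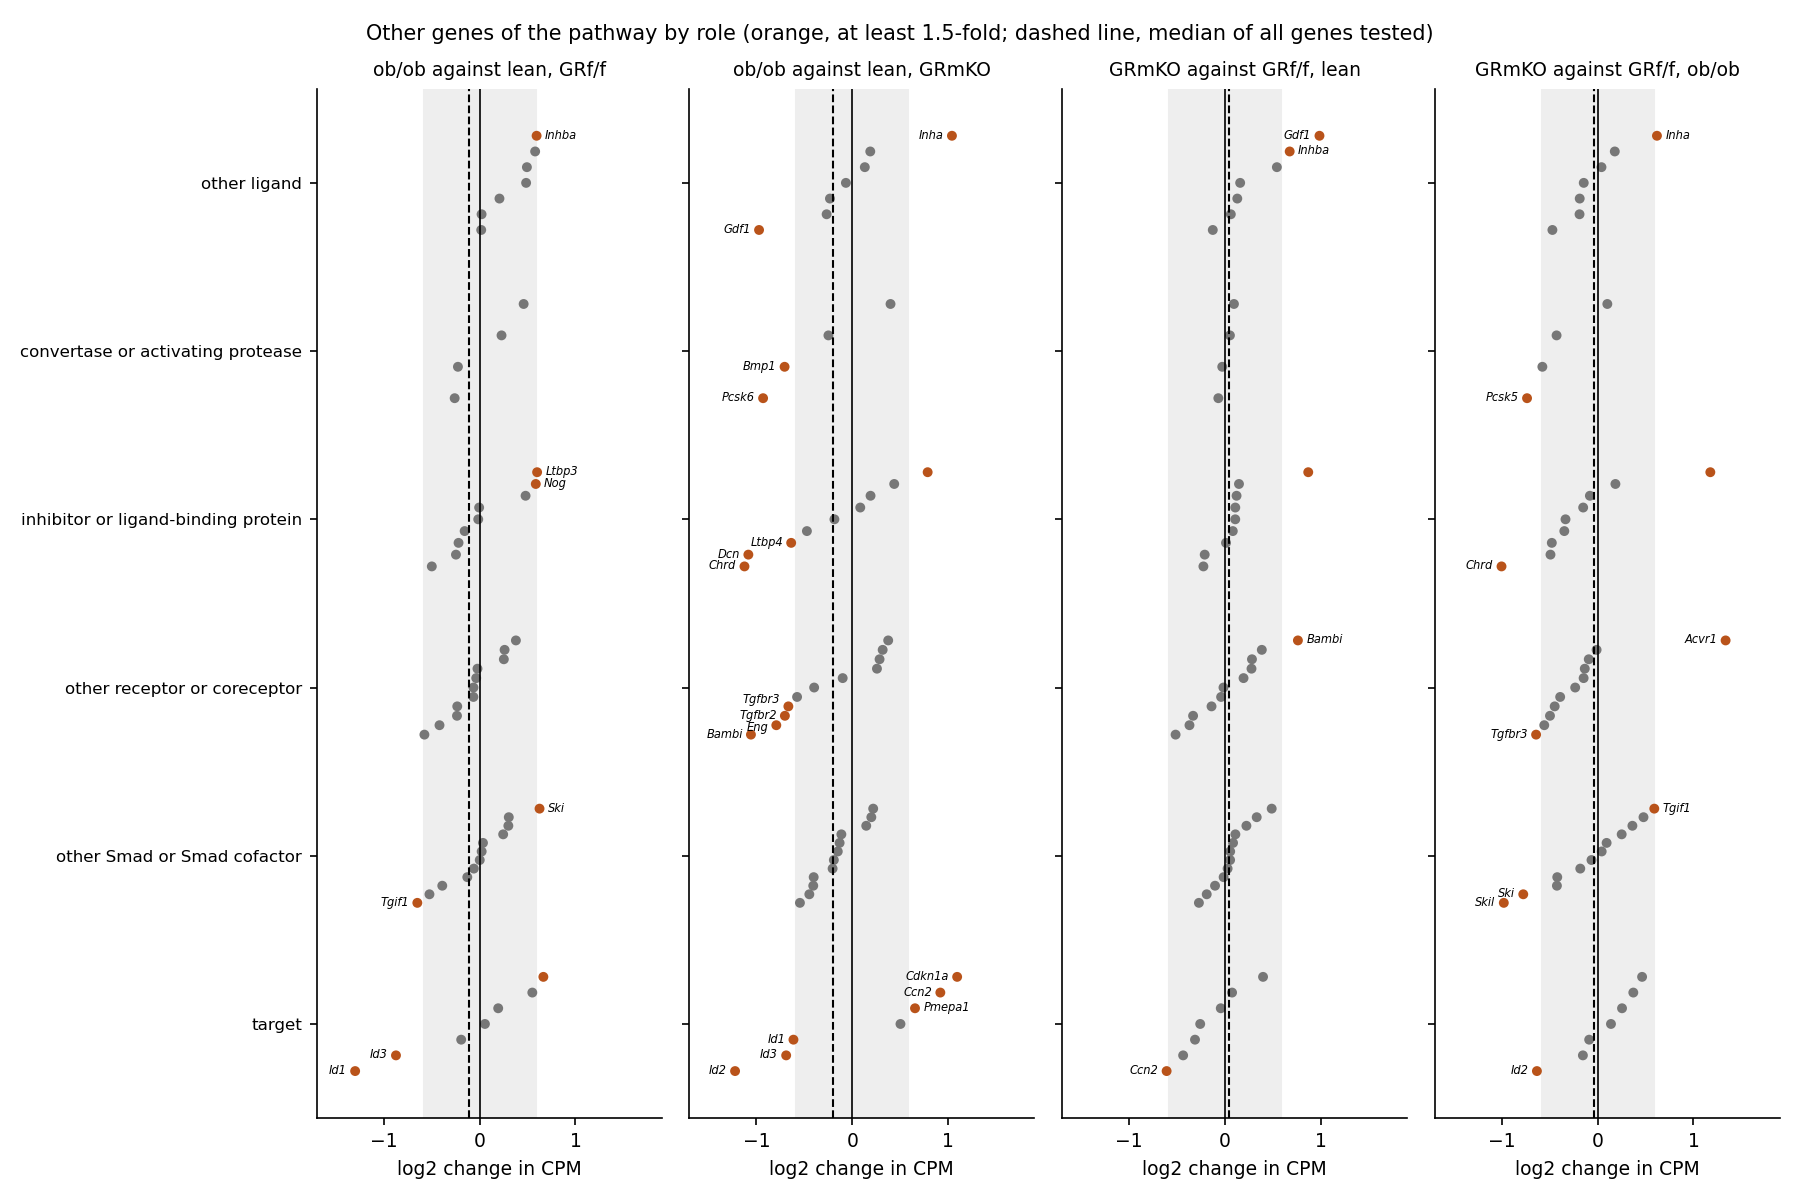
Log2 change in CPM (x axis) of the 50 other pathway genes tested, grouped by role (y axis), in the 4 comparisons, with the median of all genes tested as a dashed line and changes under 1.5-fold shaded in grey. Genes called changed are orange, 8, 18, 5 and 10 from left to right (16.5%, 24.5%, 8.47% and 12.5% of all genes tested), and those described in the text are named.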

How the data were processed

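Gastrocnemius RNA of 3 mice per group was pooled, and 4 libraries were sequenced as 100-bp paired-end reads. The authors filtered the reads, quantified protein-coding GENCODE M20 transcripts (mm10) with Salmon v1.2.1 and brought them to genes by tximport (lengthScaledTPM) in R v3.5.0. Of each duplicated name the authors retained the largest entry, and they deposited expected counts, not normalized between libraries. Of the 22252 names, 14206 had counts above 0 in all libraries.

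Here, counts were divided by the library total (CPM), with exact (Clopper-Pearson) 95% intervals from rounded counts (scipy 1.17.1), which cover counting error only. A count of 3 is 0.143 to 0.151 CPM. With 1 library per group, no test was run, and a ratio of at least 1.5 was called a change. The ratio and its interval were tested on data simulated with counting error only, which says nothing of the spread between mice. Alternatives were scaling by the TMM method of edgeR 4.0.16, the size factors of DESeq2 1.42.0, the upper quartile, or the library without the 50 most abundant genes, 2 other filters, and thresholds of 2 and 1.25. edgeR and DESeq2 gave scaling factors only. Gene positions and lengths are from GENCODE M21 on GRCm38.

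All members were named, with the other pathway genes that changed in at least 1 comparison or were among the 3 most abundant of their role, the 5 genes nearest to *Mstn* and to *Fst*, and *Nr3c1* and *Fkbp5*. Pathway genes that met this rule but are not named are not reported here, although the counts include them. Marker lists covered myofiber, slow fiber, fibroblast, adipocyte, macrophage, endothelial, satellite, Schwann and smooth muscle cells. The members and lists were chosen with earlier results of these data known. The other markers summed, in lean GRf/f, lean GRmKO, ob/ob GRf/f and ob/ob GRmKO mice, to 71.0, 79.6, 81.4 and 82.1 CPM (satellite), 474, 596, 656 and 562 CPM (Schwann) and 501, 587, 393 and 353 CPM (endothelial).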

Additional observations from a re-analysis of the deposited data

Results flagged for a closer look

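With obesity, *Fstl1* was higher in GRf/f and lower in GRmKO mice. Against lean mice, its log2 change was 0.22 in ob/ob GRf/f and -0.65 in ob/ob GRmKO mice, a difference of -0.87. Both counting intervals lay apart from 0. The difference was not tested, since each group is 1 library. Of 9 fibroblast markers, 4 were higher and 5 lower with obesity in GRf/f mice, and 2 were higher and 7 lower in GRmKO mice. These markers were lower in 9 of 9 cases in ob/ob GRmKO than in ob/ob GRf/f mice, and their part was not tested.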

How the results depend on the processing

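The count of members changed with obesity in GRf/f mice was 2 and became 1 with TMM factors, DESeq2 size factors, the upper quartile or the library without the 50 most abundant genes, where *Smad2* was lost. It was 0 at 2-fold, against 4.6% of all genes tested, and 4 at the looser threshold given above, against 40.0%. In GRmKO mice, the count of 5 became 2 with TMM, DESeq2 and the upper quartile, where *Fst*, *Fstl1* and *Smad2* were lost. It became 4 without the 50 most abundant genes, where *Fstl1* was lost. At 2-fold it was 0, against 8.19% of all genes tested, and at the looser threshold 6, against 49.9%. Between genotypes, the 2 calls of lean and the 3 of ob/ob mice became 0 at 2-fold and 5 at the looser threshold in both. Of all genes tested, 2.46% in lean and 3.55% in ob/ob mice passed at 2-fold, and 23.3% and 31.5% at the looser threshold. The scalings left the calls of lean mice at 2 and took those of ob/ob mice to 2, without *Fstl1*. Neither filter on low counts moved a count. No called change turned its direction under the 4 scalings. Of 40 log2 changes, 9 with TMM, 9 with DESeq2, 6 with the upper quartile and 1 without the most abundant genes left their counting interval. The longest transcript of each member was the one already used, so this alternative for the levels per length tests nothing. No paired analysis was possible because each group is 1 library with no shared replicate number, and for the same reason no replicate could be left out. Intervals are widest for *Acvr2b* and *Fstl3*, the members with the fewest counts.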
